A study of Homo sapiens with 8 samples.

Results

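The genes described belong to the integrated stress response. They are its transcription factor ATF4, the eIF2α kinases that control it, and stress mRNAs that lie downstream of ATF4 or carry upstream reading frames. Members were taken by gene symbol. Of 10 listed symbols, 9 had a row among the 4616 genes of the authors' deposited table, namely ATF4, IBTK, CHAC1, DDIT4, TRIB3, SESN2, EIF2AK1, EIF2AK2 and EIF2AK4. The kinase EIF2AK3 had no row and was not analysed here. Ribosome profiling had been done in WM902B, an established primary melanoma cell line with an activating BRAF mutation, at passage 18. The cells were infected with a hairpin against the long non-coding RNA TINCR (shTINCR) or with a control hairpin (shSCR). All cells, in both conditions, received cycloheximide at 100 µg/ml for 5 min, which holds elongating ribosomes on the mRNA. Ribosome-protected fragments and RNA gave 8 libraries in 4 groups of 2 biological replicates each. The RNA libraries carry the label polyA RNA, although their titles read as total RNA. No second hairpin against TINCR is among these samples, so an effect of TINCR loss and one of the particular hairpin cannot be told apart.

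In the integrated stress response, different stresses activate kinases that phosphorylate the α subunit of eIF2, the factor that brings the initiator tRNA to the ribosome. Phosphorylated eIF2 inhibits its exchange factor eIF2B, so most mRNAs are initiated less often. The ATF4 mRNA behaves in the opposite way, because ribosomes that have translated its first upstream reading frame reinitiate in unstressed cells at an inhibitory frame that overlaps the ATF4 coding sequence, and more of them pass that frame and start at ATF4 when active eIF2 is scarce. ATF4 then switches on genes of amino acid supply, redox balance and feedback control.

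Translational efficiency (TE) is the ratio of footprints to mRNA of a gene. The table gives its log2 in both conditions, a log2 change and p-values, all computed by the authors from both replicates together. It holds no value per library, so the spread between replicates and the depth are unknown. As the only measure of error, a standard error was derived from each deposited log2 change and its p-value, taking the p as that of a normal statistic, and is called the implied SE. Across all genes the median log2 TE was 0.0019 in shTINCR cells and 0.0078 in shSCR cells of the authors' deposited table, so a change shared by all genes would not be seen. A TE change can come from footprints, from mRNA or from both, and these cannot be told apart here. The sources used here do not state whether footprints over upstream reading frames were counted. TINCR had 0 rows, so its silencing was not checked. Of 8 melanocyte lineage markers, 7 had a row in the authors' deposited table, with TYRP1 as the exception, against 0 of 6 keratinocyte, 1 of 6 fibroblast and 1 of 6 immune markers.

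TE rose in shTINCR cells for 5 of the 9 measured members, namely ATF4, CHAC1, IBTK, DDIT4 and EIF2AK1. The calls are those of the authors' deposited table at an adjusted p below 0.05. None fell, and the count of falls at an unadjusted p below 0.05 was also 0. Over all genes of the authors' deposited table, 8.23% rose and 8.17% fell at that threshold (16.4% in all). The median log2 change was 0.43 over the 9 members and 0.02 over all 4616 genes of the authors' deposited table. The members were chosen with earlier results of these data known, so setting them beside all genes is not an independent comparison. TRIB3 and SESN2 had positive changes that did not pass, and the kinases EIF2AK2 and EIF2AK4 had small negative ones. All 9 members had a TE below the median of all genes in shSCR cells, and 8 of them were also below it in shTINCR cells, with CHAC1 as the exception. For 5 members (ATF4, CHAC1, IBTK, TRIB3 and SESN2) the implied SE lay in the largest 10% of all genes, so by this rough measure their sizes are among the least precise. That SE rests on the final p, the larger of the authors' 2 versions, and is thus larger where the versions disagree. For all 5 of these members the first version gave a smaller p, so the large SE depends on the version kept.

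The count of members that rose depends on the rule for a call, as does that of all genes of the authors' deposited table. With the first of the authors' 2 versions of the p-value 7 members rose, against 9.23% of all genes, and with the second 5, against 11.0%. At an adjusted p below 0.01 there were 3, against 3.62% of all genes, and at 0.1 there were 6, against 11.5%. With Benjamini-Yekutieli adjustment 3 rose, against 2.58%, and with a minimum log2 change of 0.5 also 3, against 2.69%. Leaving out the 10% of genes with the largest implied SE removes 5 members, and of the remainder DDIT4 and EIF2AK1 rose, against 7.97% of the genes kept.

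**Figure D1:**
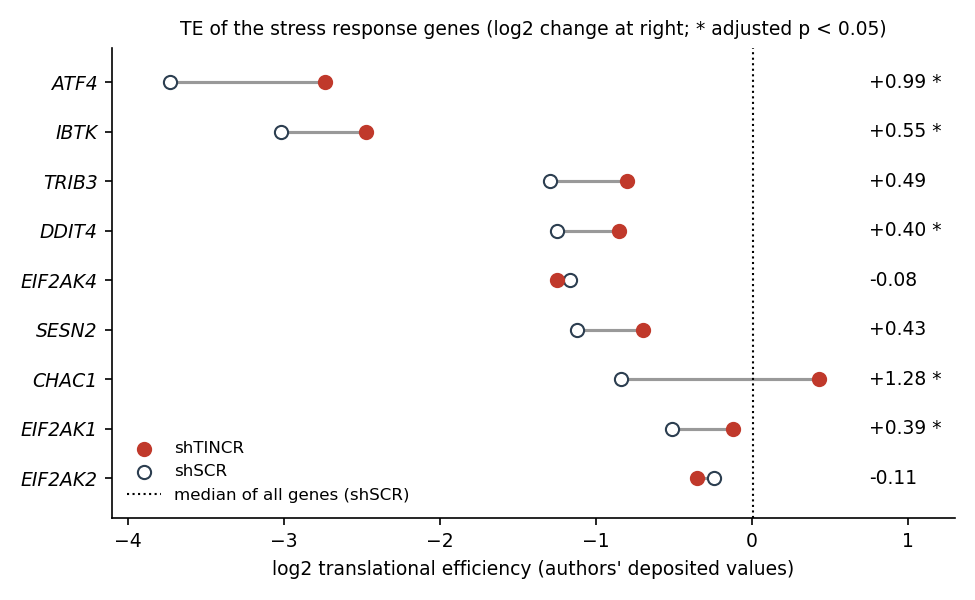
The log2 TE of each of the 9 measured genes is plotted on the x axis, with filled circles for shTINCR and open circles for shSCR cells, a dotted line at the median of all genes in shSCR cells and the log2 change at the right. ATF4 and IBTK lie far to the left in both conditions, and only CHAC1 crosses the median, with 0.43 in shTINCR and -0.84 in shSCR cells.

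ATF4 had a log2 TE of -2.74 in shTINCR cells and -3.73 in shSCR cells in the authors' deposited table. These correspond to 0.150 footprints per unit of mRNA in shTINCR cells and 0.0754 in shSCR cells, relative to a typical gene. The log2 change of 0.99 (1.99-fold, implied SE 0.175) had an adjusted p of 1.37e-06, as the authors' deposited table gives it. Counted from the lowest TE of all 4616 genes, ATF4 stood at rank 19 in shTINCR cells and at rank 3 in shSCR cells. ATF4 thus stayed among the most weakly translated mRNAs of the table in both conditions. Its log2 change was the fifth largest of all genes. RefSeq names 4 ATF4 pseudogenes, and whether reads shared with them enter the value was not tested.

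IBTK encodes an inhibitor of Bruton's tyrosine kinase, and its mRNA is known as one with inhibitory upstream reading frames. Its log2 TE was -2.48 in shTINCR cells and -3.02 in shSCR cells in the authors' deposited table. The log2 change was 0.55 (1.46-fold, implied SE 0.181, adjusted p = 0.023, from the authors' deposited table). IBTK was the other member at the bottom of the TE scale, at rank 41 from the lowest in shTINCR cells and rank 12 in shSCR cells. It has 1 named pseudogene.

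The 5 genes nearest to ATF4, by Euclidean distance over the log2 TE of both conditions, were STARD7, IRAK1, APOLD1, VMA21 and SLC35F5, at distances of 0.441 to 0.715. Of these, IRAK1, a kinase of Toll-like receptor signalling, rose by 0.60 log2 units (adjusted p = 0.00923) and STARD7, a lipid transfer protein, by 0.42 (adjusted p = 0.04), both from the authors' deposited table. APOLD1, VMA21 and SLC35F5 had log2 changes of 0.22, 0.21 and 0.12 that did not pass in the authors' deposited table. The likeness rests on 2 values a gene, so it describes position on the TE scale and nothing else. The log2 change is in essence the difference of these same values, so genes near ATF4 lean to positive changes by the choice itself. Their rises are therefore no separate result, and 8.23% of all genes rose.

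Among the genes that ATF4 induces, CHAC1 stood first. CHAC1 encodes an enzyme that breaks down glutathione, and its own mRNA carries an upstream reading frame. Its log2 TE was 0.43 in shTINCR cells and -0.84 in shSCR cells in the authors' deposited table. The log2 change of 1.28 (2.42-fold, implied SE 0.26) was the largest rise of the table (adjusted p = 5.72e-05, from the authors' deposited table). In percentiles of all genes, where 0 is the lowest TE, CHAC1 stood at 69.5 in shTINCR cells and at 17.8 in shSCR cells. CHAC1 was thus the member that moved farthest along the scale.

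DDIT4, an inhibitor of mTORC1 also known as REDD1, had a log2 TE of -0.85 in shTINCR cells and -1.25 in shSCR cells in the authors' deposited table. Its log2 change was 0.40 (1.32-fold, implied SE 0.103, adjusted p = 0.00242, from the authors' deposited table). DDIT4 was the rising target with the smaller change and the smaller implied SE of the pair.

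TRIB3, a pseudokinase that feeds back on ATF4, had a log2 TE of -0.80 in shTINCR cells and -1.30 in shSCR cells in the authors' deposited table. Its log2 change of 0.49 (1.41-fold, implied SE 0.207) was larger than that of DDIT4 but did not pass (adjusted p = 0.0849, from the authors' deposited table). SESN2, a leucine sensor that restrains mTORC1, had a log2 TE of -0.70 in shTINCR cells and -1.12 in shSCR cells in the authors' deposited table. Its log2 change was 0.43 (1.34-fold, implied SE 0.189, adjusted p = 0.106, from the authors' deposited table). The authors computed each change in 2 versions and kept the larger p. With the first version alone, where 9.23% of all genes rose, both genes passed, at an adjusted p of 0.0136 for TRIB3 and 0.0432 for SESN2 (Benjamini-Hochberg over all genes of the authors' deposited table). The log2 changes themselves were 0.49 and 0.42 there, so the versions differ in the p-value far more than in the size.

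ATF4 binds DNA at C/EBP-ATF response elements. The promoters of CHAC1 and DDIT4, the targets among the members that rose, are shown as the 250 bases before the RefSeq start (GRCh38.p14), which concern transcription and not TE. Capitals mark TGATGNAA, the core of the response element, and CCAAT, the box bound by NF-Y, each on either strand.
CHAC1, chr15:40953221-40953470, plus strand: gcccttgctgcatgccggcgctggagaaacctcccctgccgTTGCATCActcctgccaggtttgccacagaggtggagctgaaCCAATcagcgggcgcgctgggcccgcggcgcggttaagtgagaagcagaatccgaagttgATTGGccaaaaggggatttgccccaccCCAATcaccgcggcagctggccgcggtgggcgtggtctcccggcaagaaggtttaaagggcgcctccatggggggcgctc
DDIT4, chr10:72273674-72273923, plus strand: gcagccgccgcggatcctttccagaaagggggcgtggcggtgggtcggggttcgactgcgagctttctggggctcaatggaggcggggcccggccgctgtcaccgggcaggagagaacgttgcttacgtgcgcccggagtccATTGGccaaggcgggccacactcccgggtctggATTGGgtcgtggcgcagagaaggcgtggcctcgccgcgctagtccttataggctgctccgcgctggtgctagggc
The CHAC1 stretch holds 1 TGATGNAA match, on the minus strand and beginning 209 bases before the start, and 3 CCAAT boxes. The DDIT4 stretch holds no TGATGNAA match and 2 CCAAT boxes.

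Of the 10 listed genes, 9 (EIF2AK3 included, EIF2AK1 not) had a window of 250 bases before to 50 after a start in the RefSeq table. Of these, CHAC1 was the 1 with TGATGNAA. Over all 35116 windows, 3.62% held it, as did 2.62% of the 3861 genes of the deposited table that have a window. CCAAT stood in a window of 6 of these 9 genes, against 45.4% of the genes of the deposited table. Among 19 measured genes of the list of ATF4 targets with a window, 5 held TGATGNAA, and TE of 4 of these 5 rose in the authors' deposited table, as did that of 6 of the 14 without it and 8.23% of all genes. Whether the match goes with the rise was not tested. Next to CHAC1 the genes with the match were the amino acid transport genes below, of which SLC3A2 is a partner chain. They are shown with up to 10 bases on either side, on the strand of the gene and with the match in capitals. The matches of SLC3A2 and SLC7A1 begin after the start, and those of SLC1A4 and SLC1A5 before it.
SLC1A4, chr2:64989382-64989409, plus strand: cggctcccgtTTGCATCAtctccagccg
SLC1A5, chr19:46784894-46784921, minus strand: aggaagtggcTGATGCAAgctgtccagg
SLC3A2, chr11:62881726-62881748, plus strand: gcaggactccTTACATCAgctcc
SLC7A1, chr13:29595664-29595691, minus strand: ggcgcactgcTGATGAAAcctggcgccg
The log2 change of TE was 0.29 for SLC1A4, 0.30 for SLC3A2, 0.36 for SLC7A1 and, without passing, 0.14 for SLC1A5 in the authors' deposited table. A match describes these letters in these windows and does not show that ATF4 binds there.

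Of 4 eIF2α kinases, 3 were measured, and TE of 1 rose, against 8.23% of all genes. A count of 1 says little about the kinases as a group. EIF2AK1, the heme-regulated kinase HRI, which also answers mitochondrial stress, had a log2 TE of -0.12 in shTINCR cells and -0.51 in shSCR cells in the authors' deposited table. Its log2 change was 0.39 (1.31-fold, implied SE 0.12, adjusted p = 0.0123, from the authors' deposited table). In percentiles of TE, EIF2AK1 stood at 44.5 in shTINCR cells and 28.3 in shSCR cells. It has 1 named pseudogene and overlaps the protein-coding genes AIMP2 and ANKRD61. The log2 change of AIMP2 itself was 0.06 (adjusted p = 0.819, from the authors' deposited table). EIF2AK2, described next, overlaps the protein-coding gene GPATCH11. ANKRD61 and GPATCH11 had no row under these symbols. The sources used here do not state whether the counting used strand.

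EIF2AK2, the kinase PKR that binds double-stranded RNA, had a log2 TE of -0.35 in shTINCR cells and -0.24 in shSCR cells in the authors' deposited table. Its log2 change was -0.11, with an interval of -0.41 to 0.20 from the implied SE (95%, adjusted p = 0.687, from the authors' deposited table). EIF2AK4, the kinase GCN2 that senses uncharged tRNA, had a log2 TE of -1.25 in shTINCR cells and -1.17 in shSCR cells in the authors' deposited table. Its log2 change was -0.08, with an interval of -0.30 to 0.13 (95%, adjusted p = 0.644, from the authors' deposited table). Neither interval reached the 0.39 of EIF2AK1. The interval of EIF2AK1 itself, 0.16 to 0.63 (95%), overlapped that of EIF2AK2 but not that of EIF2AK4. Whether the kinases differ from each other was not tested.

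Since several members had a very low TE, the change was set against the level for all genes. Grouping by the level in shSCR cells alone favours rises among low genes, since that level is also subtracted in the change, so genes were sorted by the mean log2 TE of both conditions, an order chosen after the values were seen. ATF4, IBTK and EIF2AK4 lay in the lowest of 10 deciles, DDIT4, TRIB3 and SESN2 in decile 2, EIF2AK1 and EIF2AK2 in decile 4 and CHAC1 in decile 5. In decile 1, with 462 genes, 7.58% rose and 6.71% fell, and in decile 2 the shares were 8.87% and 8.87% in the authors' deposited table. These are close to the 8.23% and 8.17% of all genes. Sorted by TE in shSCR cells, 12.1% of decile 1 rose and 3.68% fell, and sorted by TE in shTINCR cells, 5.84% rose and 9.31% fell, so the lean of low genes depends on the condition used to sort them. By the mean of both conditions the 95th percentile of the log2 change was 0.44 in decile 1, which ATF4 and IBTK exceeded and EIF2AK4 did not. It was 0.49 in decile 2, where TRIB3 lay barely above that limit and DDIT4 and SESN2 below it. CHAC1 exceeded the 0.42 of decile 5, and EIF2AK1 did not reach the 0.43 of decile 4.

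**Figure D2:**
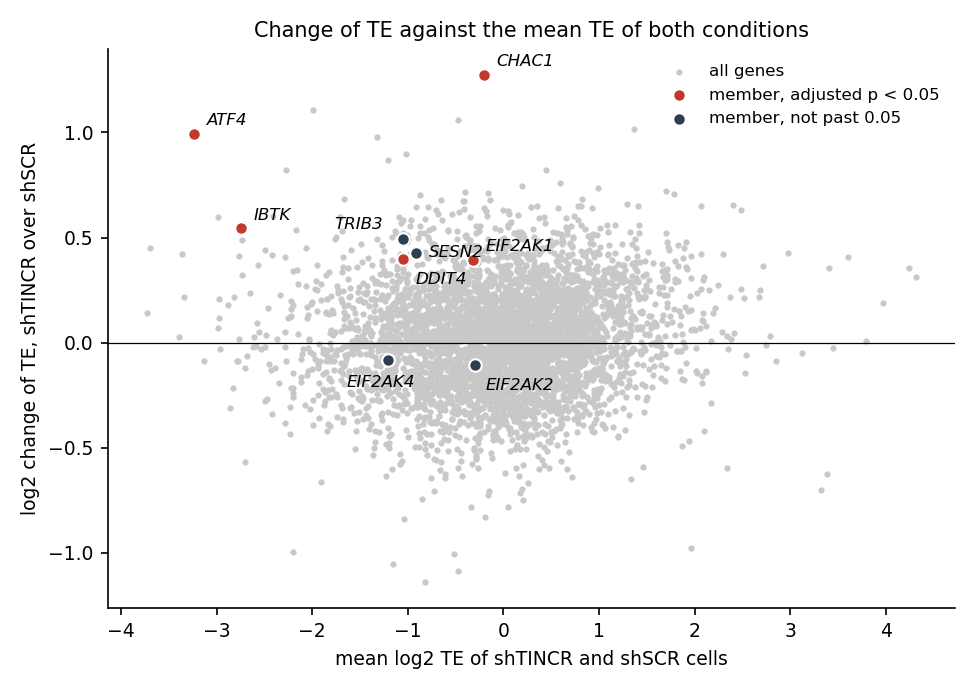
Each grey point is 1 of 4616 genes, with its mean log2 TE of both conditions on the x axis and its log2 change of TE, shTINCR over shSCR, on the y axis, and coloured points mark the 9 members. CHAC1 is the highest point of the plot, ATF4 stands at the upper left edge at 0.99, and EIF2AK2 and EIF2AK4 lie just below 0.

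**Figure D3:**
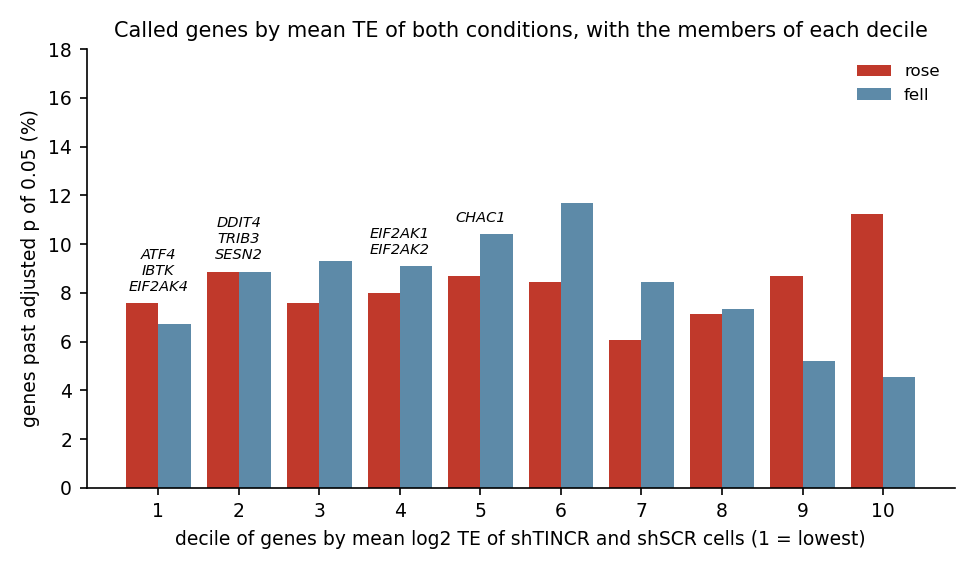
Bars give the percentage of genes past an adjusted p of 0.05 that rose or fell, in deciles of all genes by the mean log2 TE of both conditions, with the members of each decile written above. In decile 1 7.58% rose and 6.71% fell, and all 9 members lie in deciles 1 to 5.

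The other genes of the pathway were taken by function in 11 lists of 133 genes, of which 89 had a row, members included. TE of 20 of these rose and that of 9 fell in the authors' deposited table, where 8.23% of all genes rose and 8.17% fell. The 20 include the 5 members that rose. The lists were chosen with earlier results of these data known, so setting their counts beside these shares is not an independent comparison. The counts of the single lists below stand against the same shares, and most lists are so short that about 1 call in each direction or none would match them. Some genes are on several lists, so the counts of the lists are not separate from each other. On the signalling side, all 3 subunits of eIF2 fell. EIF2S1, the α subunit that the kinases phosphorylate, had a log2 TE of -0.83 in shTINCR cells and -0.44 in shSCR cells (adjusted p = 0.00226, from the authors' deposited table). EIF2S3, the γ subunit, which binds the initiator tRNA, had the largest change of the trimer and fell by 0.63 log2 units, and the β subunit EIF2S2 fell by 0.24 in the authors' deposited table. None of the 5 subunits of eIF2B passed, with log2 changes between -0.06 and 0.18 in the authors' deposited table. Of the catalytic subunits of the phosphatase that reverses the phosphorylation, PPP1CC fell by 0.44 and PPP1CA rose by 0.27 in the authors' deposited table. The other one, PPP1CB, had a log2 change of -0.25 that did not pass (adjusted p = 0.0559, from the authors' deposited table). Its stress-induced regulatory subunit PPP1R15A, also known as GADD34, had a log2 change of -0.03 (adjusted p = 0.921, from the authors' deposited table).

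Of 5 measured regulators of the kinases, 0 passed, and at an unadjusted p below 0.05 there were 1 positive and 1 negative change in the authors' deposited table. The smallest p-values were those of GCN1, the activator of GCN2, at 0.23 and of DNAJC3, a co-chaperone that inhibits PKR and PERK, at -0.27 in log2 units in the authors' deposited table. Among 8 measured factors of reinitiation and alternative initiation, 4 fell and 0 rose, against 8.17% and 8.23% of all genes, and no positive change reached an unadjusted p below 0.05 there. EIF2A, an alternative initiation factor, fell by 0.78, EIF5B, which joins the subunits, by 0.49, the reinitiation factor MCTS1 by 0.45 and the scanning factor EIF1AX by 0.42 in log2 units in the authors' deposited table. The median of this list was -0.35. DENR, the partner of MCTS1, stood at 0.01 (adjusted p = 0.955, from the authors' deposited table). Many genes of translation factors have pseudogenes that can share reads, and whether these values are affected was not tested.

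On the output side, TE of 10 of 22 measured genes of the list of ATF4 targets rose and that of 0 fell, against 8.23% and 8.17% of all genes. The median log2 change of the list was 0.30 in the authors' deposited table. These are changes of TE and no mRNA level was available, so whether ATF4 induced these genes was not tested. At an unadjusted p below 0.05, 2 changes of this list were negative. Without the members on that list, 8 of 18 rose, with a median of 0.21. PHGDH, the first enzyme of serine synthesis, rose by 0.64, the leucine transporter SLC7A5 by 0.63, the stress cytokine GDF15 by 0.48 and SLC3A2, the partner chain of SLC7A5, by 0.30 in log2 units in the authors' deposited table. Among the bZIP factors that pair with ATF4 or share its sites, 4 of 11 were measured and 1 rose, CEBPB by 0.42 log2 units (adjusted p = 0.0107, from the authors' deposited table). The median of the bZIP list was -0.03, and 1 of its changes was negative at an unadjusted p below 0.05.

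Of 16 listed mRNAs with known upstream reading frames, 8 were measured, 5 rose and 0 fell, against 8.23% and 8.17% of all genes. At an unadjusted p below 0.05, 1 change was negative in the authors' deposited table. With an adjusted p below 0.01, 2 of the list rose, against 3.62% of all genes. The 5 that rose below 0.05 were ATF4, CHAC1, IBTK, CEBPB and the arginine transporter SLC7A1. CHAC1, CEBPB and SLC7A1 are also on the list of ATF4 targets, and CEBPB is on that of the bZIP factors too. Their rises are thus the same ones already counted there. The median of the list was 0.39, and that of the 5 genes that are no members was -0.03. PPP1R15A at -0.03, the tRNA synthetase EPRS at -0.16 and the deubiquitinase UCHL5 at -0.25 did not pass in the authors' deposited table. The list thus splits into genes with positive changes that passed and genes below 0 that did not.

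Of 12 measured aminoacyl-tRNA synthetases 2 rose, WARS by 0.46 and MARS by 0.35 in log2 units in the authors' deposited table, with a list median of 0.04. The unfolded protein response outside the PERK arm had 3 rises (SDF2L1, CRELD2 and XBP1) and 1 fall (CANX) among 17 measured genes, with a median of 0.05. In the pathway from DDIT4 and SESN2 to mTORC1, 2 of 9 measured genes rose, DDIT4 and the mTORC1 subunit RPTOR. The shares of all genes that rose and fell were 8.23% and 8.17%, so these counts of 1 to 3 calls a list say little about the lists. RPTOR rose by 0.42 log2 units (adjusted p = 0.0464, from the authors' deposited table).

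**Figure D4:**
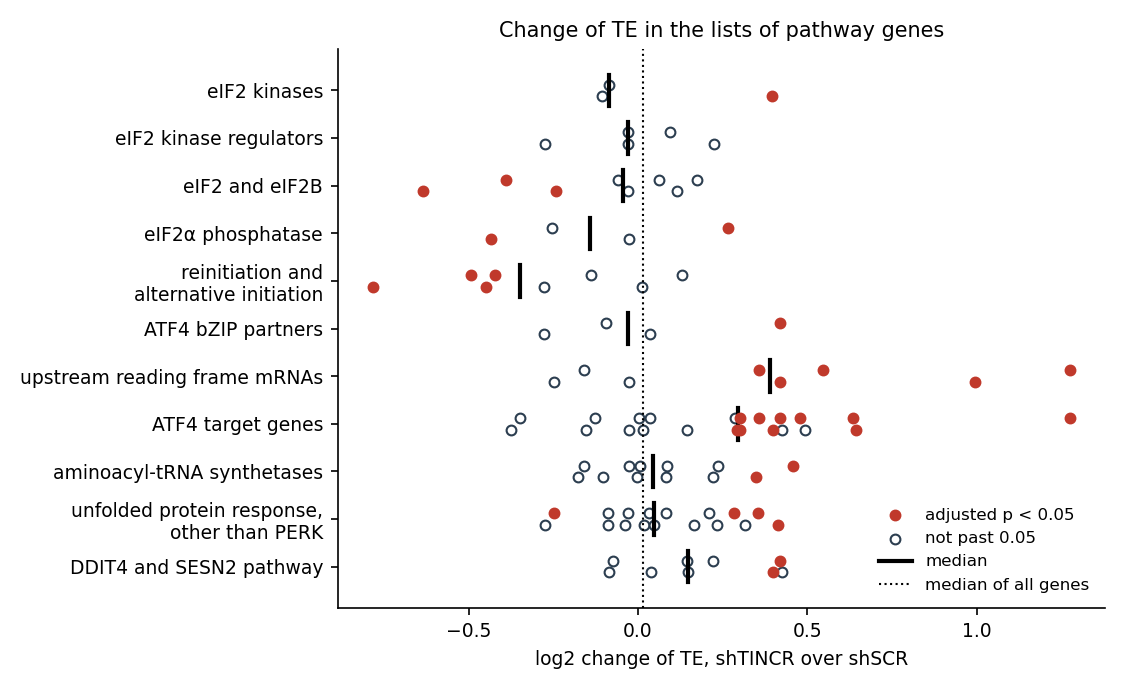
Each circle is a measured gene, with its log2 change of TE, shTINCR over shSCR, on the x axis and 1 row for each of 11 lists. Filled circles passed an adjusted p of 0.05, black bars are list medians and the dotted line is the median of all genes. The medians of the upstream reading frame and ATF4 target lists are 0.39 and 0.30, and that of the reinitiation list is -0.35.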

How the data were processed

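Footprint and RNA libraries were made from shTINCR and shSCR WM902B cells. Build hg19, DESeq 1.10.1, HTSeq 0.5.3p9, TopHat2 2.0.8, Bowtie2 2.1.0, SAMtools 0.1.18 and CASAVA 1.9 are named, with no role, per the submitters' processing notes. The deposited log2 values are, per the file headers, log2 TE of each condition and log2 changes of TE in 2 versions and a final choice. The deposited p-values are, per the file headers, those of each version, the final one and an adjusted one. From the values, the final p was the larger of both versions in all 4616 rows, and the adjusted p equalled Benjamini-Hochberg over all rows to within 2e-15. The sources used here do not state the tool that made them, the counted region, trimming or filters. There were 0 columns with values of single libraries, so no count test was run, depth is unknown, and the authors' adjusted p is the test (threshold 0.05).

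Computed here were folds, percentiles, implied SEs, list counts, deciles by TE, distances to ATF4 and motif matches (Python 3.11.15, pandas 2.3.3, numpy 2.4.6, scipy 1.17.1, matplotlib 3.10.9), with the adjustments and implied SEs tested on simulated data. The members and lists were chosen with earlier results of these data known. Named were all members, the 5 genes nearest to ATF4, and from each list up to 6 genes past the threshold by smallest p, or the 2 with the smallest p where none passed. Genes named outside that rule (eIF2B subunits, PPP1R15A, PPP1CB, DENR, EPRS, UCHL5, AIMP2 and the amino acid transport genes with a motif match) were chosen after their values were seen. ANKRD61 and GPATCH11 were named for their overlap with a member and had no row under these symbols. Symbols were matched to RefSeq (GRCh38.p14) for names: 4465 were current, 144 older and 7 unmatched. Promoter sequences are from RefSeq, matched by symbol for 9 of 10 members.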

Additional observations from a re-analysis of the deposited data

How the results depend on the processing

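No paired analysis was possible because the deposited columns carry no replicate number, and for the same reason no replicate could be left out. The sign of each of the 9 members' changes was the same under every alternative that gave a value, but no alternative could have reversed it. Most alternatives reuse the same log2 changes. The authors' 2 versions differ by at most 0.0079, and the median subtracted was 0.016, while the smallest member change was the -0.08 of EIF2AK4. ATF4 and CHAC1 passed under each alternative that kept them, but both, with IBTK, TRIB3 and SESN2, drop out when the 10% of genes with the largest implied SE are left out, which leaves 2 members that rose. The implied SE used for this cut rests on the final p, the larger of the authors' 2 versions. With the authors' first version TRIB3 (0.49, adjusted p = 0.0136) and SESN2 (0.42, adjusted p = 0.0432) passed, which makes 7 members. At a threshold of 0.1 TRIB3 passed (0.49). At 0.01, IBTK (0.55) and EIF2AK1 (0.39) no longer passed and 3 members were left. With Benjamini-Yekutieli adjustment of the authors' deposited p-values IBTK (0.55, adjusted p = 0.208) and EIF2AK1 (0.39, adjusted p = 0.111) were lost. That left 3 members. With a minimum log2 change of 0.5, DDIT4 (0.40) and EIF2AK1 (0.39) were lost and 3 were left. Over all pathway lists, rises numbered 9 at 0.01, 8 with Benjamini-Yekutieli and 5 with the minimum change, against 20, and falls numbered 2 with the minimum change, against 9. The shares of all genes that rose shrank too, to 3.62%, 2.58% and 2.69%, against 8.23%. With the minimum change 1.67% of all genes fell, against 8.17%. The same shares belong to the member counts at these settings. Rises among ATF4 targets ranged between 3 with the minimum change and 12 with the first version, where 9.23% of all genes rose. Of 22 counts of single lists 12 were above 0. Under the 7 alternatives that can change a call, these gave 84 counts, of which 50 stayed within 1.5 times and 34 did not. In the lowest decile by TE in shSCR cells 56 genes rose and 17 fell. Sorted by TE in shTINCR cells these counts were 27 and 43, and by the mean of both conditions 35 and 31, both orders chosen after the values were seen.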
